A study of Drosophila melanogaster with 3 samples.

Results

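The Drosophila melanogaster genes for subunits of Mediator and TFIID were examined in peak lists from chromatin immunoprecipitation followed by sequencing (ChIP-seq) of Empty spiracles (Ems), a homeodomain transcription factor of the embryonic head, brain and tracheal system. Members were the protein-coding genes whose symbol in the Ensembl annotation begins with MED or Taf followed by a digit, which gave 40 genes, 25 MED and 15 Taf, of 13945 protein-coding genes on the 6 chromosome arms. Capital-letter TAF symbols, and subunits known by other symbols, were not members. The chromatin came from whole embryos of the strain 16T-GFP, of mixed sex and aged 0 to 24 hours, carrying a stable transgene that encodes Ems with green fluorescent protein at its C terminus. All samples were replicates of a single condition, 3 in number, which left no conditions to compare, and no p-value is given. The description of the experiment names an antibody against the tag, whereas the antibody field of the labels says ems. A whole embryo mixes all tissues and a broad span of stages, and peak lists hold no expression values, so neither the cells in which a region was occupied nor the level of any member could be read from them. The authors derived an optimal list of 3866 reproducible peaks from the 3 replicates on the dm6 assembly, together with a joint list and 3 replicate lists of 30000 regions each, which run on into background. Of the optimal peaks, 3865 were identical to the highest peaks of the joint list. Read counts are not in these lists, so depth is unknown. Regions with a q-value under 0.01 numbered 3527, 4276 and 4599 in replicates 1, 2 and 3.

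Mediator is a large complex that carries signals from DNA-bound transcription factors to RNA polymerase II. Its head and middle modules contact the polymerase, its tail module is the main landing place for activators, MED14 is the scaffold that joins them, and a separate kinase module can dock on the whole. TFIID is the complex of TATA-binding protein and its associated factors (TAFs) that recognises core promoters and starts assembly of the transcription machinery. Genes of both complexes are expressed broadly, and in flies a set of TAF copies is used in the male germ line.

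The summit of a peak is the position of its highest signal, and the sequence around the summits at the members is shown first. The 5 windows below extend at most 60 bp to each side of a member's summit and hold no annotated exon. They cover the 4 members with the highest peaks and MED7, and each is read on the strand of the member. Capitals mark ACACTG, a part of the core promoter element called motif 1, and ATCGAT or TATCGA, which overlap each other and both occur inside TATCGATA, the recognition element of the promoter factor DREF. CGATAG, which shares 5 bases with that element, and the homeodomain core TAATTA would also be in capitals. Letters were searched on both strands, so a capital run may read as the reverse complement.
MED30 (chr3L:654207-654327, minus strand): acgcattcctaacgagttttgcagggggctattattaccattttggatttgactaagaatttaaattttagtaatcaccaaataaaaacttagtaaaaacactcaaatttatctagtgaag
MED27 (chr3R:5654905-5655025, plus strand): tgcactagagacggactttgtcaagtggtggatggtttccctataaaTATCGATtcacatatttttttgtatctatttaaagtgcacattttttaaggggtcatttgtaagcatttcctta
MED15 (chr2L:472381-472501, plus strand): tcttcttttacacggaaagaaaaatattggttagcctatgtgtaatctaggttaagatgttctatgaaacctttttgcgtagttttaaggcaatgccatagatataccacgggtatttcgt
MED7 (chr3R:10761033-10761147, minus strand): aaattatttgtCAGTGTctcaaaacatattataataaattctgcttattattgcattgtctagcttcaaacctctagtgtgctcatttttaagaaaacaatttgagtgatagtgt
Taf4 (chr3L:16113638-16113758, plus strand): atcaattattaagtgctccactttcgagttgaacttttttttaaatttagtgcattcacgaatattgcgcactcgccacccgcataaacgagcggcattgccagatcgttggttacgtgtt
Within these windows MED27 held overlapping ATCGAT and TATCGA, and MED7 held ACACTG. The windows of MED30, MED15 and Taf4 held none of these motifs. Within 100 bp of the summit, ATCGAT was found at 1 of 11 members (9.09%) and TATCGA at 2 (18.2%). Of the 2460 summits within 1 kb of a gene, 18.0% had ATCGAT and 22.8% had TATCGA. The 2 members not shown so far with ACACTG within 100 bp of the summit were MED6 and Taf7, for which 10 bases are given to each side of the match.
MED6 (chr3R:9767768-9767793, minus strand): cgactgggtgCAGTGTtgcgaactgc
MED6 (chr3R:9767800-9767825, minus strand): cgaagaacgtACACTGtccaacacgg
Taf7 (chr3R:7907561-7907586, plus strand): gatgcggctgCAGTGTgaaccatttt
The matches lay 43 and 11 bp from the MED6 summit and 8 bp from the Taf7 summit, on the downstream side, and 41 bp from the MED7 summit on its upstream side. ACACTG was found within 100 bp of 3 of 11 member summits (27.3%), against 20.9% of the 2460 summits within 1 kb of a gene. Within 50 bp the same count of 3 of 11 stood against 11.1%, and within 150 bp it stood against 27.3%. With 3 matches, none of these shares is more than a description.

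Bound genes were those with at least 1 annotated transcription start site (TSS) no more than 1 kb from an optimal summit. By this rule 11 of the 40 members were bound (27.5%, exact Clopper-Pearson 95% interval 14.6 to 43.9, which covers counting error only). Of all protein-coding genes, 3098 were bound (22.2%), a share inside the members' interval. The MED genes gave 7 of 25 (28.0%) and the Taf genes 4 of 15 (26.7%). In the replicates' own lists of the 3866 highest peaks, 11, 12 and 11 members were bound, or 28.3% ± 1.44 (SD, n = 3), against 22.2% ± 0.155 of all genes. The bound members were MED4, MED6, MED7, MED15, MED16, MED27, MED30, Taf2, Taf4, Taf7 and Taf13.

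**Figure D1:**
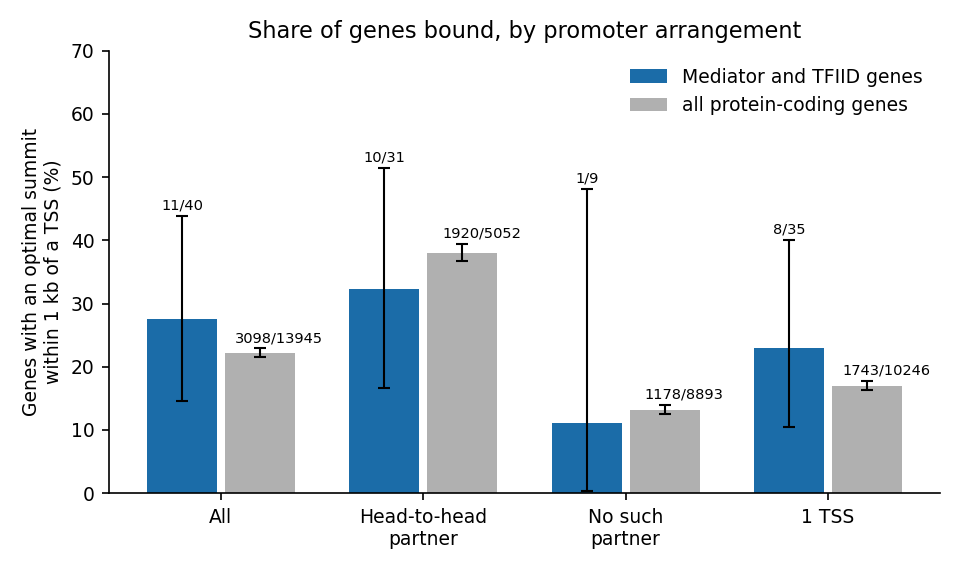
Bars give the percentage of genes with an optimal summit within 1 kb of a TSS, for Mediator and TFIID genes (blue) and all protein-coding genes (grey), in all genes, genes with or without a head-to-head partner and genes with 1 TSS. Error bars are exact 95% intervals for counting error, and the numbers are bound genes over genes. The members' intervals include the grey value in each of the 4 pairs, with 11 of 40 bound against 3098 of 13945 for all genes.

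Peaks at bound MED genes ranked better by signal than the median of all bound genes, and those at bound Taf genes, apart from Taf4, ranked worse. Bound Mediator genes with other symbols, given further below, had lower ranks than the MED genes for 2 of 3. The authors' signal column has no stated scale, so only its ranks within a list are used, with rank 1 the highest. The 7 MED peaks ranked between 167 and 1189 of 3866, with a median of 741. The 4 Taf peaks ranked 557, 2344, 2602 and 3501, with a median of 2473. Over all 11 members the median rank was 843, against 1667 for all bound genes, whose quartiles were 766 and 2721. Between those quartiles lay Taf2 and Taf7, and also MED6, MED7 and MED16. Ranks of 1000 or better were held by 7 members (63.6%), against 31.8% of all bound genes. With 7 and 4 genes these are descriptions of single peaks, and several of the peaks are shared with another gene, as described below.

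**Figure D2:**
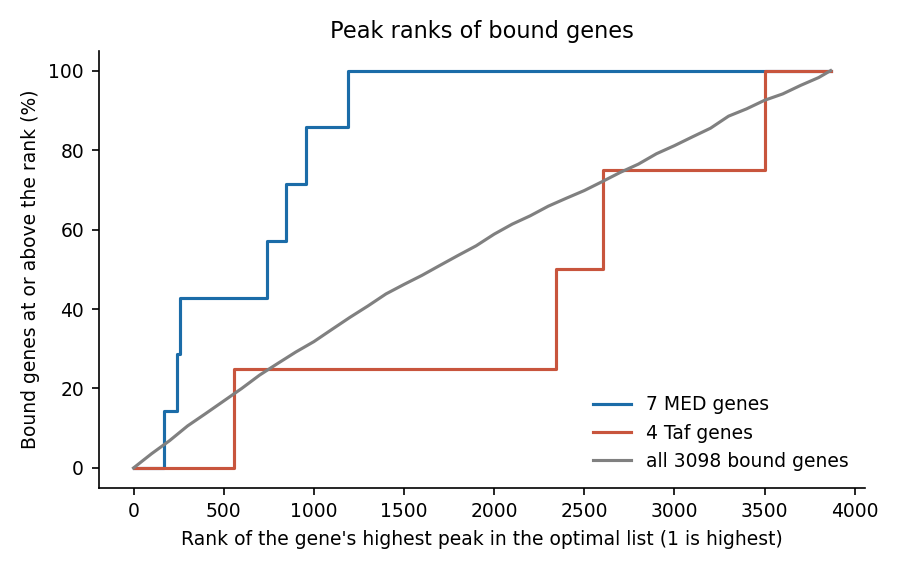
Cumulative percentage of bound genes (y axis) whose highest peak has a rank at or above the value on the x axis, for the 7 bound MED genes (blue), the 4 bound Taf genes (red) and all 3098 bound genes (grey). The MED line reaches 100% at rank 1189, while the Taf line has 1 step before rank 2344.

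In the head module, 2 of 9 genes were bound (22.2%, interval 2.81 to 60.0), against 22.2% of all genes. MED30 (FBgn0035149), a head-associated subunit found in animals, had the highest peak of any member, on chr3L from 654162 to 654386, at rank 167. It ranked 108, 175 and 238 in replicates 1, 2 and 3. The summit lay 178 bp upstream of the MED30 TSS and 96 bp from the TSS of Rev1, a translesion DNA polymerase gene that starts 274 bp away on the other strand. MED6 (FBgn0024330), a conserved head subunit, had a peak on chr3R from 9767622 to 9768025 at rank 957, and at ranks 980, 1774 and 705 in the replicates. Of the 5 annotated TSSs of MED6, the innermost was used, 9 bp from the summit, and the outermost lay 1160 bp from it. Naa80, the gene of the enzyme that acetylates the N terminus of actin, starts 19 bp from that innermost TSS and 10 bp from the summit. The summit therefore sat in an annotated 5' exon of the longer MED6 transcripts.

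In the middle module, 2 of 9 genes were bound (22.2%, interval 2.81 to 60.0), against 22.2% of all genes. The scaffold gene MED14 was not bound. MED4 (FBgn0035754), part of the core of the middle module, had a peak on chr3L from 7250470 to 7250873 at rank 741, which ranked 1018, 815 and 651 in the replicates. Its summit lay 145 bp upstream of the TSS in an exon of the antisense RNA gene asRNA:CR43470, and no other protein-coding gene was in reach. MED7 (FBgn0051390), which forms a hinge of the middle module, had a peak on chr3R from 10760891 to 10761294 at rank 843, and at ranks 979, 620 and 1315 in the replicates. The summit lay 61 bp upstream of MED7 and 217 bp from the TSS of Cap-H2, a condensin II subunit gene that starts 278 bp away. All of these ranks were inside the highest 3866 of each replicate.

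In the tail module, 3 of 6 genes were bound (interval 11.8% to 88.2%), against 22.2% of all genes, a share inside that interval. MED27 (FBgn0037359) had a peak on chr3R from 5654866 to 5655133 at rank 243, with replicate ranks of 333, 249 and 195. Its summit lay 174 bp upstream of MED27 and 104 bp from the TSS of elm, which starts 278 bp away. MED15 (FBgn0027592), the subunit through which several activators recruit Mediator, had a peak on chr2L from 472368 to 472540 at rank 257, with replicate ranks of 239, 197 and 347. Its summit was the most distant of the 11, at 572 bp upstream, and lay 241 bp from the TSS of CG4297. MED16 (FBgn0034707) had a peak on chr2R from 22182900 to 22183303 at rank 1189, with replicate ranks of 1042, 1316 and 1230. The summit lay 36 bp upstream of MED16 and 223 bp from the TSS of CG11170. The peaks of MED30, MED27 and MED15 were also the narrow ones, at 225, 268 and 173 bp, whereas the other 8 members' peaks had the common width of 404 bp. Widths under 404 bp occurred at 3 of 11 member peaks (27.3%) and at 15.4% of all peaks within 1 kb of a TSS.

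Among the TFIID genes, Taf4 stood apart from the other 3 bound members by rank. Taf4 (FBgn0010280), whose histone fold pairs with that of Taf12, had a peak on chr3L from 16113496 to 16113899 at rank 557, and at ranks 473, 621 and 607 in the replicates. The summit was intronic, 486 bp inside the outermost Taf4 TSS and 92 bp upstream of an internal one. Taf7 (FBgn0024909), a regulator of the enzymatic activity of Taf1, had a peak on chr3R from 7907363 to 7907766 at rank 2602, and at ranks 2467, 2629 and 3274 in the replicates. Its summit lay 73 bp upstream of an internal TSS and 202 bp from the TSS of EMC1, a subunit gene of the endoplasmic reticulum membrane complex. Both peaks were within the highest 3866 in every replicate.

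The other 2 bound Taf genes were not bound in every replicate. Taf2 (FBgn0011836), which contacts the initiator region of core promoters, had a peak on chr3L from 9888593 to 9888996 at rank 2344. It ranked 6190 in replicate 1, where its q-value was not under 0.01, and 2082 and 2604 in replicates 2 and 3. The summit lay 112 bp upstream of Taf2 and 33 bp inside the first TSS of CalpB, a calpain protease gene. Taf13 (FBgn0032847), whose histone fold pairs with that of Taf11, had a peak on chr2L from 20093884 to 20094287 at rank 3501, the lowest of the members. It ranked 2860 in replicate 1, 4489 in replicate 2 and 4019 in replicate 3, so that only replicate 1 had it among its highest 3866. The summit lay 237 bp upstream of Taf13 but 9 bp from a TSS of nesd.

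**Figure D3:**
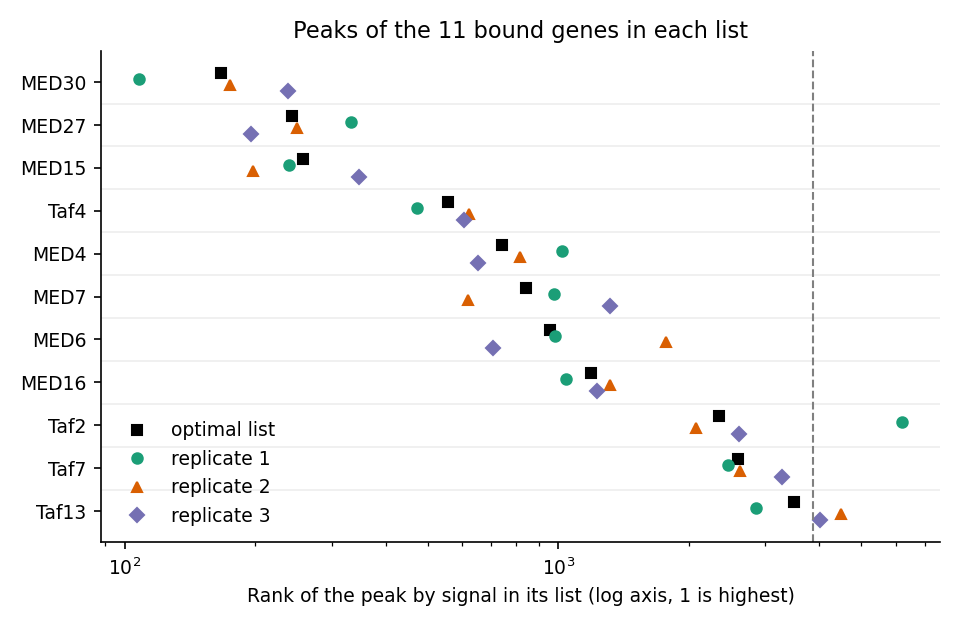
Rank of the peak at each bound member in the optimal list (black squares) and in replicate 1 (green circles), replicate 2 (orange triangles) and replicate 3 (purple diamonds), on a log axis, with the highest peak at the top. The dashed line marks rank 3866; Taf2 in replicate 1 and Taf13 in replicates 2 and 3 are to its right, and all other points are to its left.

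Peaks at bound members recurred in most replicates. The optimal list holds peaks taken as reproducible from these same 3 replicates, so recurrence in them is no independent support. All other optimal peaks went through the same selection. A peak counted as matched when it overlapped, by at least 1 bp, one of the 3866 highest peaks of a replicate. Of the 11 member peaks, 10 were matched in each replicate (90.9%), against 81.7%, 86.3% and 88.8% of the peaks within 1 kb of any gene in replicates 1, 2 and 3. A match in all 3 was found for 9 members (81.8%), and for 67.9% of all bound genes. Replicate summits lay at most 115 bp from the summit of the optimal list. Counted by each replicate's own summits, 9 of 40 members were bound in every replicate (22.5%), all 7 MED genes of the optimal list with Taf4 and Taf7, against 15.5% of all genes. Of the other bound members, Taf2 was bound in replicates 2 and 3 and Taf13 in replicate 1 alone. A further 4 members, outside the bound set of the optimal list, were each bound in 1 replicate, which brings the members bound in any replicate to 15. MED19 was bound in replicate 1, MED23 and MED25 in replicate 2, and MED31 in replicate 3.

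Most Mediator and TFIID genes start head-to-head with another gene, and their summits were mostly shared with it. A divergent partner was a protein-coding gene on the other strand whose TSS lay at most 1000 bp away, back to back. Such a partner was annotated for 31 of 40 members (77.5%), against 36.2% of all protein-coding genes, which is a feature of the annotation and not of the peaks. Of the 31, 10 were bound (32.3%), against 38.0% of all genes with a partner. Among the 9 members without one, MED4 alone was bound (11.1%), against 13.2% of all genes without a partner. Within each class the share of members was thus lower than that of all genes, inside counting error, although over both classes it was higher. Most members also have a single annotated TSS, 35 of 40 (87.5%) against 73.5% of all genes. Of these 35, 8 were bound (22.9%), against 17.0% of all genes with 1 TSS.

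A summit could therefore seldom be assigned to the member alone. In 9 of the 11 cases the divergent partner was bound by the same summit, the exceptions being MED4, which has no partner, and Taf4, whose partner Zn72D starts 1072 bp from the summit. Counted by genes, 81.8% of bound members had another gene in reach of their highest peak, against 62.5% of all bound genes. A divergent partner was annotated for 90.9% of the bound members and 62.0% of all bound genes. In 7 cases the summit lay between the closest pair of head-to-head TSSs, at MED6, MED7, MED15, MED16, MED27, MED30 and Taf7. At Taf2 and Taf13 it lay beyond the partner's first TSS, in an annotated 5' exon of the partner. The member's own TSS was the nearest in 6 cases and the partner's in 5, namely MED15, MED27, MED30, Taf2 and Taf13. If only the gene with the nearest TSS was called bound, 6 members remained (15.0%), against 16.0% of all genes. The 3 highest member peaks, at MED30, MED27 and MED15, were all nearer to the partner.

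**Figure D4:**
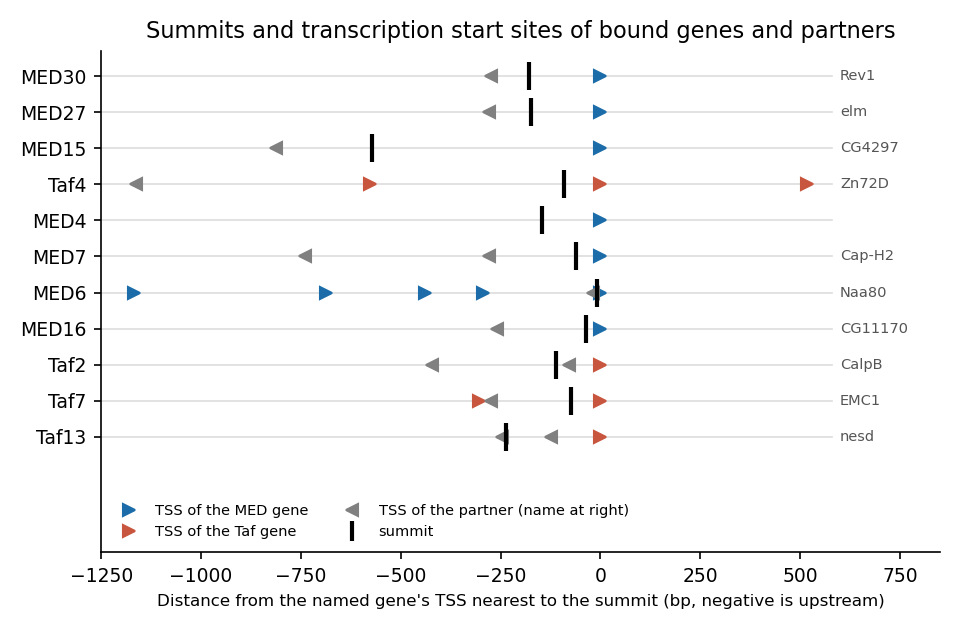
Position of each bound member's summit (black bar) and of annotated TSSs of the member (blue for MED, red for Taf) and of its divergent partner (grey, named at the right), in bp from the member's TSS nearest to the summit, with negative values upstream. The summit is upstream of that TSS in all 11 rows, by 9 bp at MED6 to 572 bp at MED15; TSSs further away than the axis are not drawn.

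All 11 summits lay upstream of the member's nearest TSS, against 82.6% of all bound genes. At MED6, Taf4 and Taf7 that TSS is internal. Their summits lay inside the gene, 1160, 486 and 232 bp downstream of the outermost TSS, and the Taf7 summit was in an annotated 5' exon of Taf7. The median position was 112 bp upstream, against 118 bp for all bound genes. Within 250 bp of the TSS were 10 of 11 (90.9%), all but MED15, against 68.7%. No optimal summit fell inside a member's gene beyond 1 kb of its TSSs. The spacing of the head-to-head pairs had a median of 274.5 bp at the bound members, ranging between 19 and 813 bp, and of 125 bp at the unbound ones, ranging between 45 and 859 bp. These medians cover 10 and 21 genes with overlapping ranges, and the 45 bp between Taf10 and Taf10b is counted for both. No such value for all genes is given, so they are descriptions only.

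The other 29 members had no optimal summit within 1 kb, and most of them had a weaker region in the joint list. Such a region, with no threshold on rank or q-value, was near 37 of all 40 members (92.5%), against 64.0% of all genes. It was near 30 of 31 members with a divergent partner (96.8%), against 84.6% of all such genes, and near 7 of 9 members without one (77.8%), against 52.3%. The list runs into background, so a region in it is not a call. MED17, a central head subunit, was the first below the end of the optimal list, at joint rank 4023, next to Taf13 at 3501 inside it. Its region, on chr3R from 18188755 to 18189158, lay 115 bp upstream and had a q-value under 0.01 in the joint list. The best ranks near MED17 in the replicates were 6472, 4715 and 3875, each outside the highest 3866. It is the only unbound member whose best joint region passed the q-value threshold.

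Next came MED25, MED23 and MED31, at joint ranks 5047, 5069 and 5134, and the replicates differed widely at each. MED25, a tail-associated subunit that takes contacts from activators, had best ranks of 10688, 3370 and 4107. MED23, a tail subunit, had 20802, 3048 and 4079. MED31, a small middle subunit, had 15160, 8672 and 3367. For all 3, replicate 1 had the lowest-ranking region and at least 1 other replicate reached its highest 3866. MED19, a middle subunit, showed the opposite order, with best ranks of 3289, 23092 and 13671 in the replicates and a joint rank of 9450.

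Most TFIID genes fell into the weak range. Taf12, the histone-fold partner of Taf4, had joint rank 6089, with 9884, 6624 and 4587 in the replicates. Taf5, a WD-repeat subunit at the centre of the complex, had 6466, with 10295, 4598 and 5889. Taf11, the partner of Taf13, had 7622, and Taf9, the histone-fold partner of Taf6, had 9452. No replicate placed Taf12 or Taf5 among its highest 3866, although an optimal summit lay 1459 bp from the Taf12 TSS. Taf10 and Taf10b are copies that start head-to-head, 45 bp apart, and shared a region of joint rank 10006. The nearest optimal summit was 1742 bp from Taf10 and 1697 bp from Taf10b. Taf8 was at rank 14687. Taf1, the largest TFIID subunit, was at 23394, and Taf6 at 27318. The region of Taf6 was the lowest of those found, and ash1, a histone methyltransferase gene that starts 333 bp from Taf6, was not bound either.

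The remaining Mediator genes spread over the same range. MED24, a tail subunit, had joint rank 7627, MED9 8391, MED28 8470, MED1 9759 and MED8 10509. MED18, MED10 and MED26 had ranks of 12911, 13345 and 14608. MED20, a head subunit whose gene starts 47 bp from that of the TBP-related factor Trf, had rank 15869, followed by MED11 at 16780, the scaffold gene MED14 at 19513 and MED22 at 20518. For MED21, Taf3 and Taf12L the joint list had no region within 1 kb. MED21 and Taf12L also had none in any replicate list. Taf12L is one of the copies used in the male germ line. Over the 26 unbound members with a region, the median joint rank was 9882.5.

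**Figure D5:**
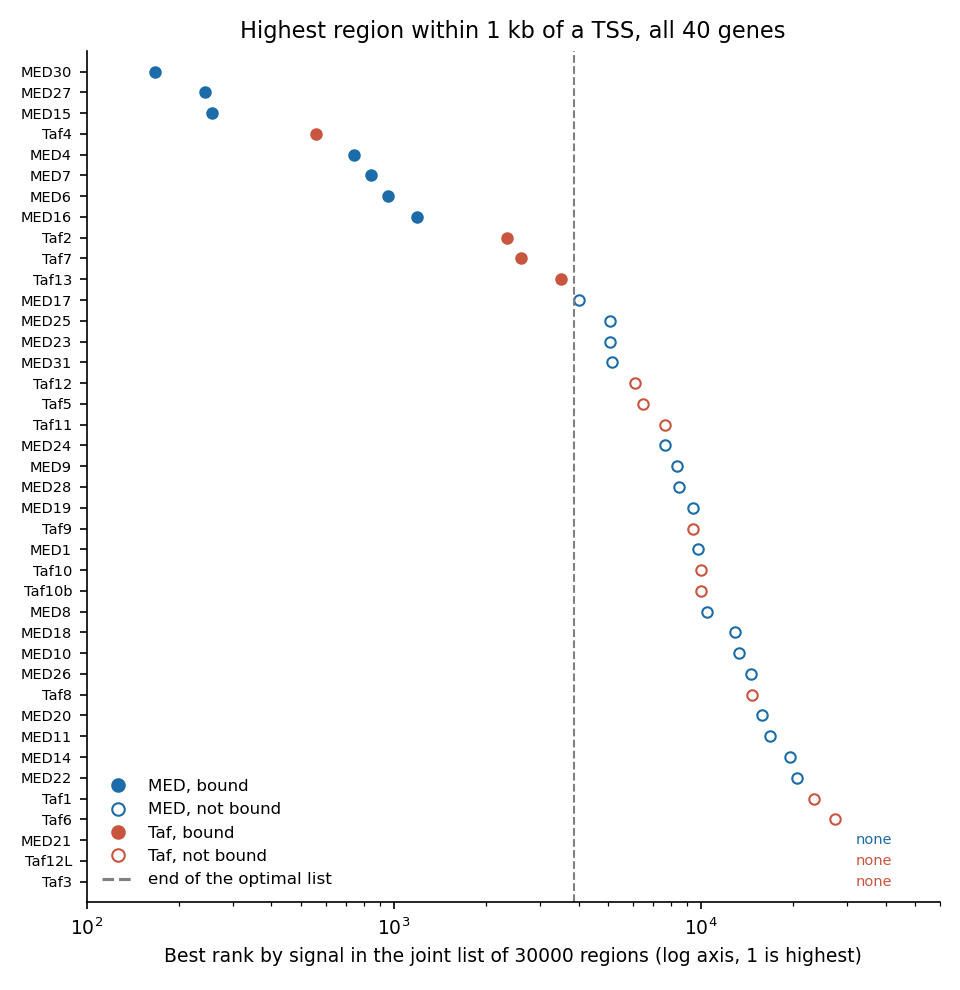
Best rank in the joint list of 30000 regions (log x axis) of any region with its summit within 1 kb of a TSS, for each of the 40 members, ordered by rank with the highest at the top. Blue is MED and red is Taf, filled symbols are bound and open symbols not bound, and the dashed line is the end of the optimal list at rank 3866. Bound members run to 3501 and unbound ones begin at 4023; MED21, Taf12L and Taf3 have no region.

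The DREF element TATCGATA is a palindrome found at many promoters of broadly expressed genes, and it was searched in the 300 bases that run 250 bp upstream to 50 bp downstream of each gene's outermost TSS. The matches at members are shown with 10 bases to each side, on the strand of the gene, because all but 1 of the members that have them were not bound. Capitals mark the element. MED7 is the bound member in this set, and MED28 has 2 copies.
MED7 (chr3R:10761204-10761231, minus strand): acctttaagtTATCGATAgctaggcacg
MED17 (chr3R:18189035-18189062, plus strand): agcactcattTATCGATAgccggccgca
MED18 (chrX:1865834-1865861, plus strand): cgttcatcgtTATCGATAgactatttga
MED25 (chr3R:20008926-20008953, plus strand): ataagttgacTATCGATAgcagcagagc
MED28 (chr3R:25476916-25476943, plus strand): cgattaaggcTATCGATAtatagcgctt
MED28 (chr3R:25476951-25476978, plus strand): tctaattcatTATCGATAagtcgtcggt
Taf3 (chr4:466846-466873, minus strand): ataccccaaaTATCGATAtatttcccat
The centre of the element lay 186 bp upstream of the TSS of MED7, 24 bp of MED17, 62 bp of MED18, 8 bp of MED25, 74 and 39 bp of MED28 and 32 bp of Taf3. With MED8 and MED9, 8 of 40 members had it (20.0%), against 9.36% of the promoters of all 13945 genes. It was in 1 of the 11 bound members (9.09%) and in 7 of the 29 unbound ones (24.1%). Over all genes the order was the reverse, with 14.9% of bound and 7.77% of unbound promoters. With 1 match among the bound members, the members' shares are descriptions only. At MED6, MED15, Taf4 and Taf7 the summit lay outside this promoter window, which is set by the outermost TSS. None of the 11 member summits had TATCGATA within 100 bp, against 8.25% of all summits near a TSS.

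CGATAG was in 13 member promoters (32.5%, against 19.5% of all). It was in 1 bound member (9.09%) and in 41.4% of the unbound ones. Over all genes it was in 29.2% of bound and 16.7% of unbound promoters. The limits given for TATCGATA hold here too. ACACTG was in 16 (40.0%, against 18.9%), or 36.4% of the bound and 41.4% of the unbound members, against 27.3% and 16.5% of the bound and unbound promoters of all genes. ATCGAT was in 15 (37.5%, against 23.3%) and TATCGA in 17 (42.5%, against 27.7%). TCAGTT, an initiator sequence, was in 3 (7.5%, against 26.1%), and GAGAGA, the GAGA factor repeat, in 2 (5.0%, against 12.3%). The TATA box sequence TATAAA was in 21 (52.5%, against 45.8%). The homeodomain core TAATTA, a palindrome, was in 12 (30.0%, against 20.4%). Within 100 bp of member summits TAATTA occurred once, at MED27 (9.09%, against 14.9% of all summits near a TSS). The median GC content of these summit windows was 34.3% at members and 36.8% at all summits near a TSS. These are matches of letters in fixed windows and say nothing of a factor's presence there.

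Subunits of both complexes known by other symbols were counted by the same rule. Of 5 Mediator genes, 3 were bound (60.0%, interval 14.7 to 94.7), against 22.2% of all genes. In replicates 1, 2 and 3 the count was 1, 3 and 3, as ix and Cdk8 were not bound in replicate 1. Divergent partners were annotated for skd (Pdss2) and ix (san). skd, the MED13 gene of the kinase module, had rank 1059 with its summit at -461 bp relative to its TSS. ix, the MED29 gene, had rank 3179 with its summit 875 bp downstream, and Cdk8, the kinase itself, had rank 3764 with its summit 12 bp downstream. CycC, the cyclin of Cdk8, and kto, the MED12 gene, were not bound. The 5 other TFIID genes, Tbp for TATA-binding protein and the male germ line copies can, mia, nht and sa, had no optimal summit in reach. With these 10 genes added, 14 of 50 were bound (28.0%), against 22.2% of all protein-coding genes.

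Other parts of the transcription machinery, in lists of 12 to 20 genes, had larger shares of bound genes, with intervals that overlap that of the members. The share of all protein-coding genes was 22.2%. These lists, like the members, were chosen with earlier results of these data known. Of 20 other general transcription factor genes, 11 were bound (55.0%, interval 31.5 to 76.9). The highest were Ssl1, a TFIIH subunit gene, at rank 7, TfIIA-S at 866 and Tfb4, also of TFIIH, at 1265. Of 12 RNA polymerase II subunit genes, 5 were bound (41.7%, interval 15.2 to 72.3), led by Polr2H at rank 327 and Polr2F at 393. Of 15 genes of SAGA, a coactivator complex that shares TAFs with TFIID, 9 were bound (60.0%, interval 32.3 to 83.7), led by the acetyltransferase gene Gcn5 at rank 404. Bound in every replicate's own list were 7 of the 20, 4 of the 12 and 5 of the 15 genes. By that rule 9 of the 40 members and 15.5% of all genes were bound. Divergent partners were annotated for 60.0%, 58.3% and 66.7% of the genes in these 3 lists, against 77.5% of the members. Of the genes named here, Ssl1, Tfb4, Polr2H and Gcn5 have such partners, namely Chro, Vps29, CG11247 and ver. TfIIA-S and Polr2F have none. No peak was assigned to a single gene of a pair.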

How the data were processed

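Deposited narrowPeak lists on dm6 for 3 biological replicates of 1 group were used. Each list was called from alignments and a control, per the notes deposited beside it. Control reads were not analysed here. Neither aligner nor peak caller nor the threshold on the irreproducible discovery rate (IDR) is given in the sources used here. The signal column is the authors' deposited peak signal on an unstated scale and served only to rank regions within a list. A −log10 q column deposited by the authors gave regions with a q-value under 0.01, and the deposited summit offset gave 1-based summit positions. Depth is unknown, and intervals cover counting error only.

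TSSs came from all annotated transcripts of protein-coding genes in Ensembl release 115 on the Release 6 assembly, and sequences from the Release 6 genome. Genes were bound when an optimal summit lay within 1000 bp of a TSS. For replicates, the 3866 regions of highest signal were taken, the size of the optimal list. Means and SDs are over n = 3. No test was run, since there is 1 group. Motifs (12 in all) were searched on both strands within 100 bp of summits and in promoters. Alternatives covered the TSS window, the nearest TSS, the outermost TSS, signal and replicate thresholds, and presence in both others when a replicate was set aside. Others covered peak intervals, the joint list, overlap rules, divergent neighbours and motif windows. The members and the gene lists were chosen with earlier results of these data known. Every member could be named; from other lists, up to 6 bound genes with the highest peaks, and unbound genes of lists of at most 12. The older names e(y)1, bip2 and rye are annotated as Taf9, Taf3 and Taf12L and were members. Python 3.11.15, NumPy 2.4.6, pandas 2.3.3, SciPy 1.17.1 and matplotlib 3.10.9 were used.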

Additional observations from a re-analysis of the deposited data

How the results depend on the processing

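Of the alternatives for the counts and the median rank, 40 stayed within 1.5 times the reported value and 8 did not. Calling only the gene with the nearest TSS left 6 bound members in place of 11, with 4 MED in place of 7 and 2 Taf in place of 4. A window of 2000 bp raised the bound Taf genes to 7, by Taf10, Taf10b and Taf12, and all members to 14 (35.0%, against 26.9% of all genes). Keeping only the 1933 optimal peaks of highest signal left 1 bound Taf gene, Taf4, and all 7 MED genes. Keeping peaks matched in every replicate left 2 Taf genes, Taf4 and Taf7. The optimal list was not remade without a replicate. Instead, each replicate was set aside in turn and presence in both others was required, a stricter rule. This gave 9 to 10 members, 7 MED and 2 to 3 Taf genes. Taf13 was lost without replicate 1, and Taf2 and Taf13 without replicate 2 and without replicate 3. Of all genes, 17.8%, 16.4% and 16.2% remained without replicates 1, 2 and 3, against 22.2% in the main count. Windows of 250 and 500 bp lost MED15, the outermost TSS alone lost MED6, and the joint list at a q-value under 0.01 added MED17. Of the motif counts at summits, 14 of the alternatives with other windows stayed within that range and 10 did not. The causes were not tested. No paired analysis was possible because there is 1 group and no comparison between groups. The counts rest on 11 bound genes, peak depth is unknown, and a summit between head-to-head genes is counted for both.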
